A study of Homo sapiens with 6 samples.

Results

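The genes described here were 10 homeobox transcription factor genes, namely HOXA3, HOXA4, HOXA5, HOXA6, HOXA7, HOXA9, HOXA10 and HOXA11 of the HOXA cluster, together with MEIS1 and PBX3, taken by gene symbol out of 58735 genes in the deposited count table. They were measured by mRNA sequencing in 6 cultures of MOLM-13, an established monocytic line of human acute myeloid leukaemia in which KMT2A is fused to MLLT3 and FLT3 holds an activating duplication. Cultures had been given 8p, a synthetic compound that the labels call a RET/CDK8 inhibitor, at 3.5 nM for 48 hours (n = 3), or were untreated controls kept for the same 48 hours (n = 3). The stated IC50 of 8p is 7 nM. All 6 cultures share the line's own mutations and the genotype label WT, and the design text calls the replicates independent and biological. One line and one dose limit the comparison, and whether controls received the solvent of 8p is not stated, so any solvent effect is part of each difference.

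HOX genes encode homeodomain proteins that set position along the body axis in embryos and set the state of blood stem and progenitor cells in the adult. The HOXA genes lie in one row on a single strand, and the posterior members HOXA9 and HOXA10 are kept active in leukaemias with KMT2A fusions, where the fusion protein binds their chromatin. PBX3 and MEIS1 are homeodomain proteins of the TALE class. They bind DNA together with HOXA9, and the 3 proteins are known as a unit that maintains KMT2A-rearranged leukaemia. HOXA9 and MEIS1 normally decline as myeloid cells mature.

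Exposure to 8p was accompanied by opposite differences within this set. HOXA9, HOXA10 and HOXA11 were lower with 8p, HOXA3 and PBX3 were higher, and MEIS1 did not differ beyond the spread between replicates. In edgeR's quasi-likelihood test with Benjamini-Hochberg adjustment over the 13822 genes that passed the filter on low counts, 9 of the 10 members were tested, and 5 of these 9 passed an adjusted p of 0.05, 2 higher and 3 lower. In the same fit 74.7% of all tested genes passed, 37.9% higher and 36.9% lower, so the members were not called more often than genes at large. HOXA4 had too few counts to be tested. Values with 8p and in controls did not overlap for the same 5 members, of which 2 lay above and 3 below. Among all tested genes 77.0% did not overlap, 38.9% with all 8p values above and 38.0% with all below. The median log2 fold change was 0.03 over the 9 members and 0.03 over all tested genes.

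Upstream sequences are shown for the members on which the results turn, so that the start regions of genes that fell (HOXA9, HOXA10), rose (HOXA3) and did not pass the test (MEIS1) can be compared. Each is the 250 bases before a RefSeq transcription start (GRCh38.p14), printed 5′ to 3′ on the gene's strand, and none of them overlaps an exon annotated in GENCODE release 29. They are chr7:27165538-27165787 (minus strand) for HOXA9, chr7:27174321-27174570 (minus strand) for HOXA10, chr7:27118358-27118607 (minus strand) for HOXA3 and chr2:66434875-66435124 (plus strand) for MEIS1. Capitals mark matches on either strand to CACGTG, the E-box bound by MYC and USF proteins, to CCAAT and to TATAAA.
HOXA9: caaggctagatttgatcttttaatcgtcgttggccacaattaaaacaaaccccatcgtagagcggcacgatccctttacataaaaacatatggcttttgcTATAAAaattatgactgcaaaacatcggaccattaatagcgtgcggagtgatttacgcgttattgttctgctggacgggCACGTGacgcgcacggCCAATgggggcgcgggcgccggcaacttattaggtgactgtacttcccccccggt
HOXA10: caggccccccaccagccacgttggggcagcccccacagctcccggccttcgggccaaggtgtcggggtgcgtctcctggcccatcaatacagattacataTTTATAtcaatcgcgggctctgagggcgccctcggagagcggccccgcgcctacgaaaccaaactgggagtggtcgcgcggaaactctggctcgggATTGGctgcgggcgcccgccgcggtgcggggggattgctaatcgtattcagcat
HOXA3: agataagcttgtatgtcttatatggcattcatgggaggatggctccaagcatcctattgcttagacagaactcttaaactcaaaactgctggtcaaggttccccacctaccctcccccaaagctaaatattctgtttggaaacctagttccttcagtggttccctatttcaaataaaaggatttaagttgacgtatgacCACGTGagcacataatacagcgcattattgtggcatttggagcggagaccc
MEIS1: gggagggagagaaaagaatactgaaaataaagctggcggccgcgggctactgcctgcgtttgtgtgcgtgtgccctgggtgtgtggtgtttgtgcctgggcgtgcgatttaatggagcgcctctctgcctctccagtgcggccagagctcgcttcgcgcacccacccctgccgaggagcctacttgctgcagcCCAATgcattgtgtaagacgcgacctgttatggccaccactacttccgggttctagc
HOXA9 held one match to each motif, with CACGTG beginning 71 bases, CCAAT 55 bases and TATAAA 150 bases before the start. HOXA10 held CCAAT 54 bases and TATAAA 150 bases before this start, both on the opposite strand, and no CACGTG. The other HOXA10 window, chr7:27179862-27180111, which is exonic, held TATAAA 222 bases and CCAAT 249 bases before its start. The HOXA3 window shown held CACGTG 51 bases before its start, and it was the only one of the 7 HOXA3 windows that did. The HOXA3 window at chr7:27152584-27152833, which is exonic, held TATAAA and CCAAT, and the other 5 held none of the motifs. Of those 5, the window at chr7:27119596-27119845 also overlaps no annotated exon. CACGTG was also in the window of HOXA4, 200 bases before its start. MEIS1 held CCAAT alone, 57 bases before the start. Among 35116 RefSeq windows of the same 250 bases, 6.34% held CACGTG, 32.0% CCAAT and 10.7% TATAAA. These shares are per window, and a gene with 7 windows has more places for a match. The motifs TGATTNAT and TGACAG, forms of the sites of HOX-PBX and MEIS proteins, were also searched on both strands and are in 2.48% and 13% of all windows. Neither is in the 4 sequences shown, and TGACAG is in the windows of HOXA4 and PBX3. No motif searched overlapped another in the 4 sequences. HOXA3 has 7 such windows and HOXA10 has 2, and which starts were used in these cells was not measured. The table of sequences used here held no window for HOXA5.

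Total counts ran between 14972069 and 16210861 in 8p libraries and between 18834611 and 23485628 in controls. Mitochondrially encoded genes took 6.42%, 9.98% or 10% of counts with 8p and 1.64% to 1.91% in controls, and 8p replicate 2 stood apart from the other 8p libraries (chi-square per degree of freedom of 21.7 and 21.5, against 2.98 between replicates 1 and 3). Control replicate 3 also stood apart, less strongly, from the other controls (9.98 and 10.7, against 3.91 between control replicates 1 and 2). With mitochondrially encoded genes left out, and without 8p replicate 2, the same counts of 2 higher and 3 lower members were obtained. Markers of the labelled cell type were present: all 8 myeloid markers passed the filter, and their summed CPM was 5047 to 5636 with 8p and 1970 to 2098 in controls. LYZ carried most of that sum, at 3732 ± 369 CPM with 8p and 1040 ± 60.0 CPM in controls (SD, n = 3 each). Of these markers 6 were called higher and 2 lower, namely CD33 (log2 fold change -0.50) and MPO (-0.64). Of all tested genes 37.9% were called higher and 36.9% lower. The erythroid marker HBB had no count in any library, and nor had EPCAM and COL1A2. Summed CPM was 32.7 to 44.3 with 8p and 34.3 to 36.7 in controls for 4 T and NK cell markers, 1.5 to 2.29 and 1.35 to 1.64 for 3 B cell markers, and 29.1 to 40.3 and 8.60 to 9.81 for 4 epithelial and fibroblast markers. Within the last list COL1A1 had 25.6 to 37.6 CPM with 8p and 0.218 to 0.801 CPM in controls. Among the T and NK cell markers, CD3D (-2.64) and TRAC (-1.42) were lower on the log2 scale, NKG7 was higher (0.78), and CD3E had at most 0.109 CPM in any library. KRT18 was lower (-1.47). The part of these differences in the results below was not tested.

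HOXA9 (ENSG00000078399; chromosome 7, 27162435 to 27175180, minus strand) encodes the factor that is both a marker and a driver of this class of leukaemia. Levels are given as CPM, counts per 1e6 counts of the library scaled with TMM factors. HOXA9 had 58.6, 63.5 and 60.7 CPM in the 8p replicates and 77.4, 74.4 and 93.8 CPM in the controls. All 8p values lay below all controls, and control replicate 3 was the highest. The means were 60.9 ± 2.46 CPM with 8p and 81.9 ± 10.4 CPM in controls (SD, n = 3 each). The log2 fold change was -0.42 (SE 0.09, 95% interval -0.62 to -0.23, adjusted p = 5.53e-04). Leaving out single libraries moved it between -0.51 and -0.34, and with upper quartile scaling it was -0.24 (adjusted p = 0.0257). In these bulk cultures a smaller share of cells that express a gene and less RNA per cell cannot be told apart.

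HOXA10 (ENSG00000253293; chromosome 7, 27170591 to 27180261, minus strand), the neighbour of HOXA9 and a factor that restrains myeloid maturation, was lower too. It had 19.4, 19.9 and 19.0 CPM with 8p, against 31.3, 29.4 and 36.8 CPM in controls. The 8p values were nearly equal and all lay below the controls. The log2 fold change was -0.74 (SE 0.11, adjusted p = 1.15e-05).

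HOXA11 (ENSG00000005073; chromosome 7, 27181510 to 27185223, minus strand), best known for limb and reproductive tract development, fell as well. It had 8.65, 13.9 and 8.77 CPM with 8p, against 17.9, 16.6 and 19.2 CPM in controls. The groups did not overlap, and 8p replicate 2 was the highest of the treated cultures. The log2 fold change was -0.77 (SE 0.17, adjusted p = 6.25e-04), and -1.07 without 8p replicate 2.

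HOXA3 (ENSG00000105997; chromosome 7, 27106184 to 27152581, minus strand), an anterior member that patterns the pharyngeal arches, was the HOXA member that rose. It had 12.9, 17 and 14.3 CPM with 8p and 5.35, 5.09 and 4.08 CPM in controls. Every 8p value was more than all control values, at means of 14.7 ± 2.09 and 4.84 ± 0.673 CPM (SD, n = 3 each). The log2 fold change was 1.60 (SE 0.16, adjusted p = 2.83e-07), the largest in size among the 9 tested members in this fit. Without 8p replicate 2, the highest, it was 1.45.

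HOXA5, HOXA6 and HOXA7 of the middle of the cluster were at low levels, and their groups overlapped. HOXA5, which regulates lung and blood development, had 4.92 to 7.02 CPM with 8p and 4.79 to 5.44 CPM in controls (log2 fold change 0.30, 95% interval -0.10 to 0.70, adjusted p = 0.164). HOXA7 had 1.32 to 3.04 CPM with 8p and 2.39 to 3.50 CPM in controls (-0.44, interval -1.10 to 0.21, adjusted p = 0.203). HOXA6 had 0.472 to 1.93 CPM with 8p and 0.653 to 1.22 CPM in controls (0.12, interval -0.93 to 1.18, adjusted p = 0.830). The highest HOXA6 value came from 8p replicate 1, and without that library the estimate was -0.73. The intervals of HOXA6 and HOXA7 include differences as large as those of HOXA10 and HOXA11. HOXA4 was not tested, with 24 counts over the 8p libraries and 25 over the deeper control libraries, too few to judge a difference. Of its exonic bases 31% are shared with AC004080.6, listed at 0 counts, and 14.5% with HOXA-AS2, so reads there may also be missing from HOXA4.

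PBX3 (ENSG00000167081; chromosome 9, 125747345 to 125967377, plus strand), the TALE partner through which HOXA9 and MEIS1 act in KMT2A-rearranged leukaemia, rose. It had 186, 163 and 176 CPM with 8p, against 118, 114 and 117 CPM in controls. The groups were well apart, with means of 175 ± 11.6 and 116 ± 2.44 CPM (SD, n = 3 each). The log2 fold change was 0.59 (SE 0.07, adjusted p = 1.47e-06), and it was between 0.52 and 0.61 with single libraries left out.

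MEIS1 (ENSG00000143995; chromosome 2, 66433452 to 66573869, plus strand), the cofactor that speeds HOXA9-driven leukaemia, had 58.0, 55.9 and 60.9 CPM with 8p and 58.7, 61.6 and 51.1 CPM in controls. All 3 treated values fell inside the control range. The log2 fold change was 0.03 (95% interval -0.16 to 0.21, adjusted p = 0.784). With upper quartile scaling, which moved the median of all genes up by 0.19, it was 0.21 (adjusted p = 0.0345).

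**Figure D1:**
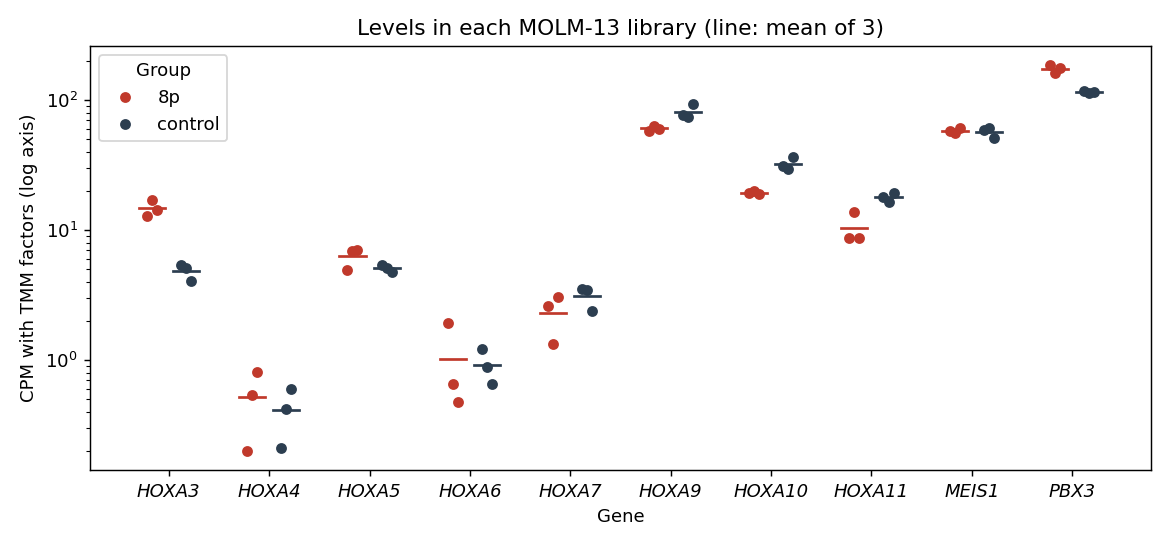
CPM of each member (log axis) in the 3 libraries with 8p (left, red) and the 3 control libraries (right, dark), with lines at the means. HOXA3 and PBX3 lie above their controls, HOXA9, HOXA10 and HOXA11 below, and the groups overlap for the other 5 members.

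Levels of different genes were compared per length, as RPKM (CPM per kilobase of the deposited gene length). With 8p, PBX3 was the highest member at 38.7 ± 2.57 RPKM, followed by HOXA9 at 20.1 ± 0.811 RPKM, and their ranges did not overlap. In controls HOXA9 stood at 27.0 ± 3.44 RPKM and PBX3 at 25.7 ± 0.539 RPKM, with overlapping ranges. Next came, with 8p, MEIS1 (5.33 RPKM), HOXA10 (5.24), HOXA11 (4.53), HOXA5 (3.69) and HOXA3 (3.42), each of which overlapped the next in that order. In controls HOXA10 (8.77 RPKM) and HOXA11 (7.77) overlapped each other and stood above MEIS1 (5.22), and MEIS1 stood above HOXA5 (3.00). HOXA3 was at 1.12 RPKM in controls, and its range overlapped those of HOXA7 above and HOXA6 under it. The deposited length of MEIS1, 10934 bases, is the longest of the members and lowers its RPKM.

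**Figure D2:**
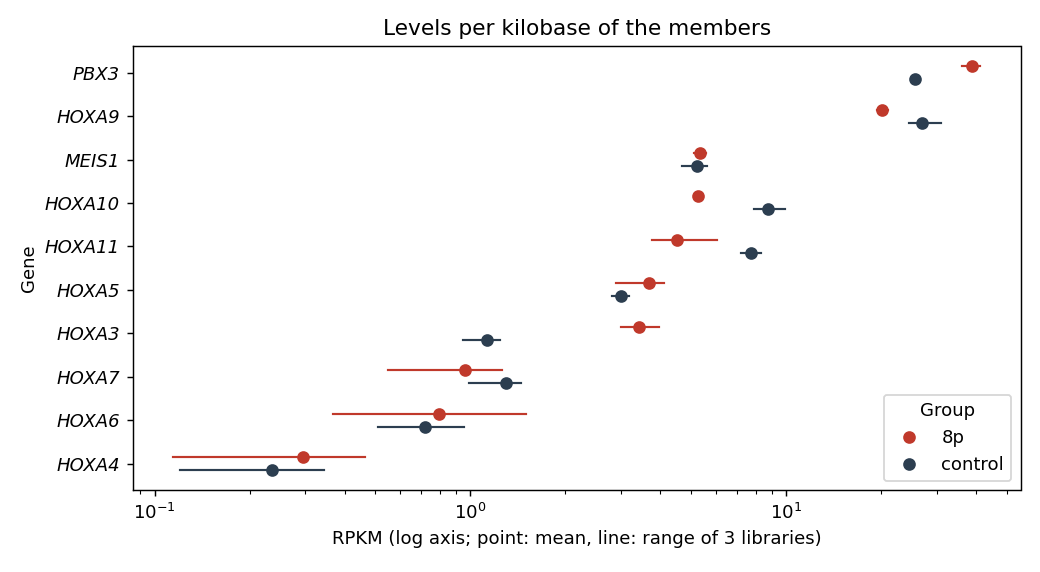
RPKM of each member (log axis), with points at group means and lines over the range of 3 libraries, 8p above control for each gene. With 8p PBX3 (38.7 RPKM) stood clear of HOXA9 (20.1 RPKM), while the ranges of these genes overlapped in controls.

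Along the cluster, the fold changes differed by position. HOXA13, the gene at the posterior end, is no member but was counted in a list of other HOXA cluster genes. It fell to 3.41 ± 0.401 CPM with 8p, against 8.25 ± 0.864 CPM in controls (log2 fold change -1.27, adjusted p = 1.29e-05). The 4 neighbouring genes HOXA9, HOXA10, HOXA11 and HOXA13 were each called lower, under every alternative run, and their estimates were -0.42, -0.74, -0.77 and -1.27 in chromosomal order. HOXA2 held 17 counts with 8p and 16 in controls, and EVX1, a homeobox gene beside the cluster, held none.

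Of 8 noncoding genes listed for the cluster, 5 were tested. Among these 3 rose and none fell, beside 37.9% and 36.9% of all tested genes. The median log2 fold change of the 5 was 1.23. HOTAIRM1, a myeloid long noncoding RNA read from the opposite strand beside HOXA2, had 5.06, 6.77 and 6.81 CPM with 8p and 1.39, 1.03 and 1.80 CPM in controls. The groups were well apart. Its log2 fold change was 2.15 (adjusted p = 1.82e-06). HOXA-AS2, which overlaps HOXA3 on the other strand, rose by 1.56 on the log2 scale (adjusted p = 8.98e-04). It had 2.87 ± 1.00 CPM with 8p and 0.959 ± 0.219 CPM in controls (SD, n = 3 each). HOXA10-AS, which overlaps HOXA9 and HOXA10, rose by 1.23 (adjusted p = 0.00726, up to 0.0408 with single libraries left out). It had 2.20 ± 0.607 and 0.921 ± 0.286 CPM, so both genes were at low levels. HOXA-AS3 (0.48, adjusted p = 0.314) and HOXA11-AS (-0.21, adjusted p = 0.278) did not pass. HOTTIP had 15 counts with 8p and 5 in controls, MIR196B had none, and no gene of the table bears the symbol HOXA10-HOXA9.

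**Figure D3:**
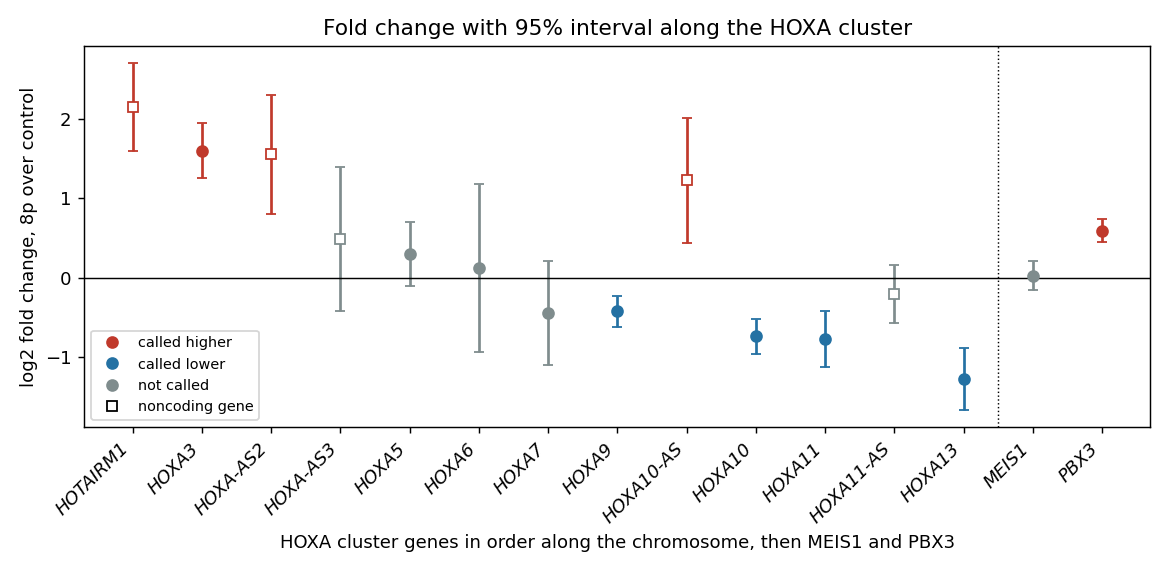
Log2 fold change of 8p over control with its 95% interval for the tested members, HOXA13 and noncoding genes of the HOXA cluster in chromosomal order, then MEIS1 and PBX3; open squares are noncoding genes and colours give the call. HOXA9, HOXA10, HOXA11 and HOXA13 lie below 0, while HOTAIRM1, HOXA-AS2, HOXA3 and HOXA10-AS lie above it.

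Several of these genes share exonic bases with a partner, and no source used here gives the strand setting of the counting, so reads of overlapping antisense genes could not be told apart. HOXA-AS2 shares 374 exonic bases with HOXA3, or 8.69% of that gene's, and its 194 counts over all libraries came to 19.4% of the 1001 of HOXA3. HOXA11-AS covers 31.1% of the exonic bases of HOXA11 and had 39.1% as many counts. HOXA-AS3 covers 62.5% of the exonic bases of HOXA7, with 28.3% as many counts, and 39.3% of those of HOXA6, with 81.3% as many. HOXA10-AS counts came to 2.01% of those of HOXA9 and 5.45% of those of HOXA10. HOXA9 and HOXA10 share no exonic base with each other. Both share bases with AC004080.3, a coding gene on their own strand that was listed at 0 counts in every library, so reads there may be missing from either. HOXA3 likewise shares 8.78% of its exonic bases with AC004080.6 and 6.83% with AC004080.5, both listed at 0 counts.

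Within a library, the ratio of one gene's counts to another's needs no scaling factor. The HOXA9 to PBX3 ratio was 0.314, 0.389 and 0.345 with 8p, against 0.654, 0.655 and 0.801 in controls. That is a difference of -1.01 in the log2 ratio. The HOXA9 to MEIS1 ratio was 1.01, 1.13 and 0.998 with 8p and 1.32, 1.21 and 1.83 in controls, a difference of -0.45. The HOXA9 to HOXA10 ratio was 3.02, 3.19 and 3.19 with 8p and 2.47, 2.53 and 2.55 in controls, a difference of 0.32. For these 3 ratios the groups did not overlap, and each gave p = 0.10 in the two-sided exact permutation test, before and after adjustment over the 3. That is the smallest p that 3 libraries against 3 allow, so no ratio could pass 0.05. A further 3 ratios were computed after the values were seen and are given without a test. The HOXA3 to HOXA9 ratio was 0.221 to 0.269 with 8p and 0.0438 to 0.0694 in controls, and the MEIS1 to PBX3 ratio was 0.311 to 0.345 and 0.437 to 0.542. The HOXA11 to HOXA9 ratio overlapped between groups, at 0.145 to 0.219 with 8p and 0.205 to 0.232 in controls.

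**Figure D4:**
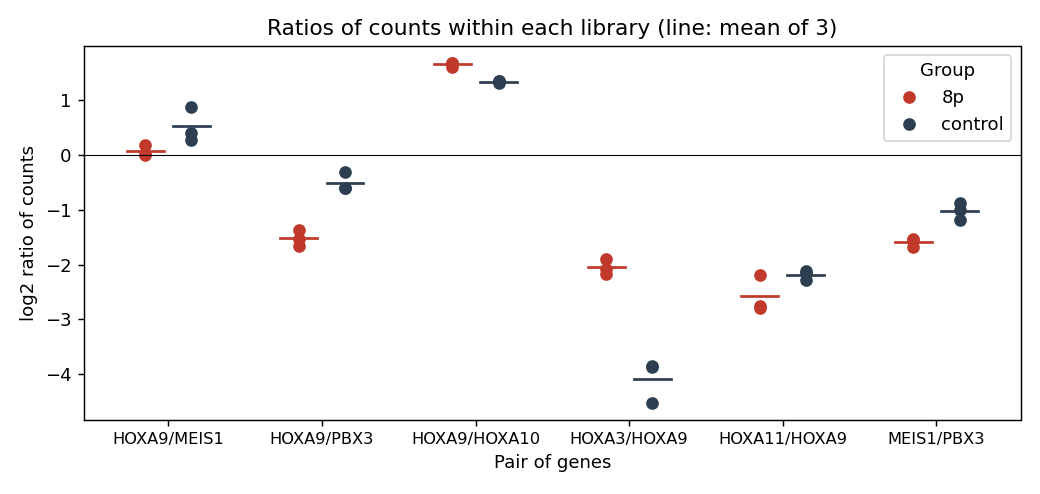
Log2 ratio of the counts of 2 genes in each library, with 8p at the left and control at the right of each pair and lines at the means of 3 libraries. The groups are apart for 5 of the 6 ratios and overlap for HOXA11 to HOXA9.

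The summed RPKM of the 11 coding HOXA genes was 39.1, 42.8 and 40.4 with 8p and 51.6, 49.3 and 57.7 in controls (exact permutation p = 0.10, the smallest possible). HOXA9 made up 49.3% ± 0.369 of this sum with 8p and 51.0% ± 2.29 in controls (SD, n = 3 each), with overlapping values. HOXA3 made up 8.37% ± 0.790 with 8p and 2.15% ± 0.440 in controls. HOXA9, HOXA10 and HOXA11 together made up 73.2% ± 2.01 and 82.2% ± 2.61.

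Genes of the other HOX clusters were near the limit of detection. None of the 28 HOXB, HOXC and HOXD gene symbols passed the filter, and 26 of them had no count in any library. HOXB7 had no count with 8p and 15 in controls, and HOXC6 had 8 and 17. Of 10 further TALE genes and partners 6 were tested. The median log2 fold change of these was 0.39, and 3 rose and 2 fell, beside 37.9% and 36.9% of all tested genes. PBXIP1, a protein that binds PBX factors, had 116 ± 8.15 CPM with 8p and 36.0 ± 1.64 CPM in controls (1.69, adjusted p = 3.25e-11). PBX2 rose by 0.72 and the repressor TGIF1 by 0.76 on the log2 scale. PKNOX1, a TALE protein related to MEIS1, fell by 0.48 (adjusted p = 0.00127), and MEIS2, at 0.894 ± 0.724 CPM with 8p and 2.02 ± 0.0819 CPM in controls, fell by 1.18 (adjusted p = 0.0248). The MEIS2 estimate was -2.09 without 8p replicate 1, and its call was lost without any one of the other 5 libraries (adjusted p up to 0.0772).

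Of 16 genes reported elsewhere as targets of HOXA9 or MEIS1, 12 were tested. Among these 4 rose and 5 fell, beside 37.9% and 36.9% of all tested genes. The median of the 12 was 0.01. The 4 with the largest difference were all lower: MYC (-2.35), the kinase gene PIM1 (-1.72), the receptor gene IGF1R (-1.47) and CCND3, which encodes cyclin D3 (-1.46). FLT3, the mutated receptor kinase of this line, rose by 0.77. MYB was at -0.19 on the log2 scale (adjusted p = 0.0149) and BCL2 at 0.06 (adjusted p = 0.399). BCL2 was called higher with upper quartile scaling (0.25, adjusted p = 0.00270) and over protein-coding genes alone (0.15, adjusted p = 0.0457). MYB did not pass with upper quartile scaling (-0.01) or over protein-coding genes alone (-0.11). ERG and CD34 had no count.

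CYBB, which encodes a subunit of the phagocyte NADPH oxidase and is reported as repressed by HOXA9 or HOXA10, rose. It had 201 ± 4.58 CPM with 8p and 15.9 ± 1.01 CPM in controls (log2 fold change 3.66, adjusted p = 1.55e-14). Of 14 monocyte and macrophage genes 9 were tested. Among these 8 rose, none fell and the median was 2.96. S100A8 (4.01), CSF1R (3.87), CD36 (3.76) and CD86 (3.27) differed most.

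Of 22 genes listed as regulators of HOXA transcription 20 were tested. Their median was -0.26, and 7 rose and 11 fell, beside 37.9% and 36.9% of all tested genes. The number that rose was 4 without 8p replicate 3, with every counted gene kept and at an adjusted p of 0.01, and 4 to 8 over all alternatives, while 9 to 11 fell. EZH2, the methyltransferase of Polycomb repressive complex PRC2, had 38.8 ± 3.26 CPM with 8p and 107 ± 1.57 CPM in controls (-1.46). PSIP1, which tethers the menin and KMT2A complex to chromatin, had 27.9 ± 1.37 and 65.4 ± 2.46 CPM (-1.23). The nucleolar gene NPM1 fell by 1.07 on the log2 scale. USF1, an E-box factor, rose by 0.99.

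**Figure D5:**
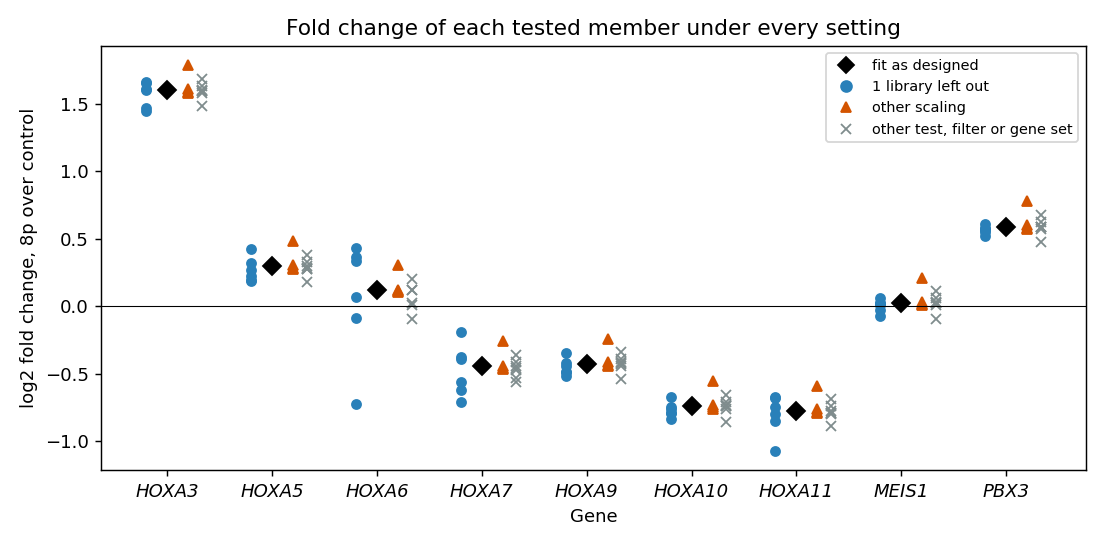
Log2 fold change of 8p over control for each of the 9 tested members under the fit as designed (diamond), with 1 library left out (circles), other scalings (triangles) and other tests, filters or gene sets (crosses). HOXA3 and PBX3 stay above 0 and HOXA9, HOXA10 and HOXA11 below it throughout, while MEIS1 and HOXA6 lie on both sides.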

How the data were processed

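The deposited table holds raw read counts per gene for 6 libraries, whole numbers to which the authors had applied no normalization. Per the submitters' processing notes, HISAT2 2.0.5, featureCounts 1.5.0-p3, DESeq2 1.20.0, edgeR 3.22.5 and build hg38 were used. The labels name poly(A) capture or rRNA removal without saying which. Positions and exonic lengths of all 10 members equalled GENCODE release 29.

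Counts were tested in R 4.3.3 with edgeR 4.0.16 (quasi-likelihood F test), using TMM factors, filterByExpr (minimum count 10), group as the only term and Benjamini-Hochberg adjustment over all tested genes at 0.05. The SE is the log2 fold change divided by the square root of F. TMM rests on most genes being unchanged, and no spike-in was counted, so fold changes are relative to other transcripts. RPKM is CPM per kilobase of deposited gene length. Ratios used a pseudocount of 0.5 and the exact permutation test. Alternatives were DESeq2 1.42.0, voom in limma 3.58.1, other scalings and filters, the replicate number as a block, protein-coding genes alone, a threshold of 0.01, each library left out and, added after seeing the data, no mitochondrially encoded genes. The fit was also run on simulated counts in which few genes differed. Far more genes were called here, so that run does not test this setting.

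The members and lists were chosen with earlier results of these data known. Named were all members, overlapping genes, called HOX, TALE and cluster noncoding genes, the 4 called genes with the largest difference of each other list, MYC, FLT3, BCL2 and MYB, the nearest tested neighbours of each locus and the 2 genes most like HOXA9, MEIS1 and PBX3. Depth sets the precision of genes with few counts, and the 8p libraries were the shallower ones. A few genes are not reported here.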

Additional observations from a re-analysis of the deposited data

How the results depend on the processing

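The counts of 2 members higher and 3 lower were the same under all alternatives but upper quartile scaling, which gave 4 higher (HOXA5 at 0.48 and MEIS1 at 0.21 were added) and 3 lower. That scaling also moved the split over all genes to 6240 higher and 4258 lower, against 5232 and 5098. Signs turned only for genes that had not passed. With every counted gene kept, MEIS1 was -0.0893 and BCL2 -0.0545. Both were thus lower than in the main fit, while the median, now over 26595 genes, was higher by 0.101. HOXA6 was -0.0914 with limma-voom. With single libraries left out, MEIS1 lay between -0.0701 (without control replicate 3) and 0.0590, and was also below 0 without 8p replicate 3 (-0.0238). HOXA6 lay between -0.725 (without 8p replicate 1) and 0.435, and was also below 0 without control replicate 3 (-0.0823). Apart from the filter's own construction, the cause was not tested. Same-numbered libraries did not deviate together (correlations of 0.00, -0.03 and -0.05), so the numbers were not taken to pair cultures. With the replicate block, 5076 genes were higher and 5014 lower, with 2 members higher and 3 lower, and the differences in log2 ratio were -1.01, -0.45 and 0.32 (exact sign-flip p = 0.25, the smallest that 3 pairs allow). A pseudocount of 5 turned no ratio. Depth limits HOXA4, HOXA6 and HOXA7 most. Shared exonic bases limit HOXA4 as well, and may limit HOXA6 and HOXA7.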

Other observations

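Genes around the loci were also counted. Of all tested genes 37.9% rose and 36.9% fell. Within 1 Mb of the HOXA cluster 9 genes were tested. Among these 1 rose and 4 fell, and the median log2 fold change was -0.60. The nearest tested neighbours were SKAP2, an adaptor gene 97.8 kb beyond the anterior end, which fell to 39.6 ± 1.19 CPM with 8p, against 61.4 ± 2.33 CPM in controls (-0.63, adjusted p = 2.55e-06), and EIF4HP1, a pseudogene 258 kb beyond HOXA13 (-0.60, adjusted p = 0.0715). EIF4HP1 passed with every counted gene kept, and without control replicate 3 or 8p replicate 1. Within the same distance of MEIS1 only ETAA1 was tested, and it fell by 0.43 (adjusted p = 0.00384), though not past the threshold with upper quartile scaling (adjusted p = 0.0743). Of 16 tested genes near PBX3, 6 rose and 5 fell, with a median of 0.15. AL358074.1 beside its start was at -0.77 on the log2 scale (adjusted p = 0.294), or -2.73 without 8p replicate 2 (adjusted p = 0.00290). MVB12B beyond its end rose by 1.42 (adjusted p = 0.00278).

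Some genes followed the members closely over the 6 libraries, judged by the Euclidean distance between centred log2 CPM values among the 10377 tested protein-coding genes whose average log2 CPM was 1 or more. The nearest to HOXA9 were FOPNL (distance 0.07) and AP3S1 (0.09), with log2 fold changes of -0.39 and -0.44. The nearest to MEIS1 were DNM2, which encodes dynamin 2 (0.03), and VAC14 (0.06), at 0.02 and 0.01. The nearest to PBX3 were CDKN1B, which encodes the cell cycle inhibitor p27 (0.07), and MOB1A (0.07), at 0.54 and 0.58. How often so small a distance arises among this many genes was not tested.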
